A study of Mus musculus with 24 samples.

Results

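The complement genes of macrophages described here were C1qa, C1qb, C1qc, C3, Cfb and Cfp, chosen by name as components of the cascade that macrophages are known to make. All 6 were found in the table of 24273 genes and all 6 passed the filter on low values, which kept 13901 genes. C3 and Cfb were 2.23- to 4.08-fold and 2.38- to 3.86-fold higher in the macrophages labelled FosKO than in those labelled LysM, already before any stimulus. The C1q chains and Cfp differed by at most 0.26 log2 units, and of these only C1qb and C1qc at 0.5 h were called both as deposited and after quantile normalisation.

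Complement is a cascade of plasma proteins that coats microbes and dying cells and marks them for phagocytosis. It can be started by C1q, which is built from A, B and C chains and binds antibody or cell debris, or by the alternative pathway, in which factor B (Cfb) pairs with the central component C3 to form a convertase that properdin (Cfp) stabilises. Most circulating complement comes from the liver, whereas C1q is made largely by macrophages and dendritic cells, and macrophages also secrete C3, factor B and properdin at sites of inflammation.

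The RNA came from bone marrow-derived macrophages (BMDMs) of C57BL/6 mice, grown from femoral marrow in L-cell conditioned medium and then held overnight in low serum. Cells labelled LysM carried LysM-Cre, and cells labelled FosKO carried LysM-Cre with both Fos alleles floxed (Fos fl/fl). LysM-Cre is a Cre gene placed at the lysozyme locus Lyz2, which is active in myeloid cells. Each genotype was left untreated or stimulated for 0.5, 1 or 2 h with 100 ng/ml lipopolysaccharide (LPS), a bacterial product sensed by TLR4, with 3 libraries in each of the 8 groups. The controls are given as LysM-Cre in the design text but with 1 floxed and 1 intact Fos allele in the study's text, and age is not given in the sources used here. Whether the libraries of a group came from separate mice is not stated in the labels, so p-values measure only the spread between these libraries.

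The libraries were checked before any comparison. Fos, the targeted gene, was higher in the libraries labelled FosKO at 0, 1 and 2 h and lower only at 0.5 h. Its mean log2 values at 0, 0.5, 1 and 2 h were 12.60, 12.75, 12.78 and 12.80 in FosKO. In LysM they were 11.11, 13.52, 11.15 and 9.52. Fos thus rose at 0.5 h and then fell in LysM, whereas it stayed nearly level in FosKO. The cause of the higher level in FosKO was not tested. The table has a single value for Fos, in which the floxed part cannot be told from the rest, and groups are therefore called by their labels throughout. Lyz2, the Cre locus, was 5.17 log2 units higher in FosKO at 0 h, so Fos genotype and the state of Lyz2 cannot be told apart. In 5 libraries (LysM replicate 3 and FosKO replicate 1 at 0.5 h, LysM replicates 2 and 3 and FosKO replicate 1 at 1 h) the ribosomal RNA gene Rn18s-rs5 stood at 16.65 to 17.00, against 18.57 to 19.39 in the other 19. The differences of the 6 genes between the labels at 0.5 and 1 h are given within these sets too. Macrophage markers were high in every library, with a summed linear level of 143523 to 174373 in LysM and 140584 to 186723 in FosKO over 7 genes (Adgre1, Csf1r, Cd68, Mertk, Fcgr1, Itgam and Cd14), of which 3 were called higher and 4 lower in FosKO at 0 h. Of 6 neutrophil markers in the table, Ly6g and Elane were at the floor of the table in every library, and the list summed to 60.8 to 127 in LysM and 43.7 to 68.0 in FosKO, with 3 of 3 tested genes lower in FosKO at 0 h. Monocyte markers summed to 581 to 1182 in LysM and 460 to 959 in FosKO, with 2 of 3 called higher and 1 lower in FosKO at 0 h. Dendritic cell markers summed to 37.5 to 133 and 37.5 to 100.0, with 0 of 3 tested genes called. On the same scale C3 was at 6593 and Cfb at 88.4 in LysM at 0 h, and Cfb at 269.6 in FosKO, so Cfb lay below the monocyte sums. The part of these cells in the results was not tested. In bulk RNA, fewer cells with a transcript and less transcript per cell cannot be told apart. The table holds no read counts, so the depth of each library is unknown and no counting interval is given.

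On the genome (mm10, GRCm38) the C1q genes form 1 cluster on chromosome 4, from 136880129 to 136898803, with C1qb, C1qc and C1qa in that order on the minus strand. C3 lies on chromosome 17 from 57203970 to 57228136, Cfb on chromosome 17 from 34856374 to 34862518, and Cfp on chromosome X from 20925454 to 20931555, all on the minus strand. Gm20547, a predicted gene on the same strand from 34856412 to 34882042, overlaps Cfb, and reads from their shared exons could have been given to either. Its mean log2 value was 3.73 in LysM and 4.61 in FosKO at 0 h, against 6.47 and 8.07 for Cfb. At 2 h Gm20547 stood at 3.63 and 5.65, a difference of 2.02 (limma adjusted p = 0.000676), against 7.34 and 8.59 for Cfb, a difference of 1.25, so the Cfb values carry this uncertainty.

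Levels were compared between genes per kilobase of exon, with the union of all annotated exons as the length. This was 1931 bases for C1qc, 1088 for C1qb and 1040 for C1qa. The transcripts expressed may be shorter, and the SDs below do not include that uncertainty in the order of genes. In LysM at 0 h C1qb stood highest, with a mean log2 level per kilobase of 14.14 ± 0.03 (SD, n = 3), followed by C1qc at 13.05 ± 0.03. C1qa at 12.44 ± 0.04 and Cfp at 12.42 ± 0.04 overlapped and could not be ordered. C3 followed at 10.32 ± 0.15, and Cfb was far below the rest at 4.97 ± 0.29. The order changed most for C3. Per kilobase, C3 reached 12.19 ± 0.37 in FosKO at 0 h, where its libraries (11.89 to 12.60) overlapped those of C1qa and Cfp. After 2 h of LPS it reached 13.24 ± 0.04 in FosKO, above C1qa and Cfp and just below C1qc at 13.37 ± 0.06. In LysM at 2 h it was at 12.08 ± 0.08, still below C1qa and Cfp, and there C1qa (12.64 to 12.76) stood above Cfp (12.42 to 12.48).

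**Figure D1:**
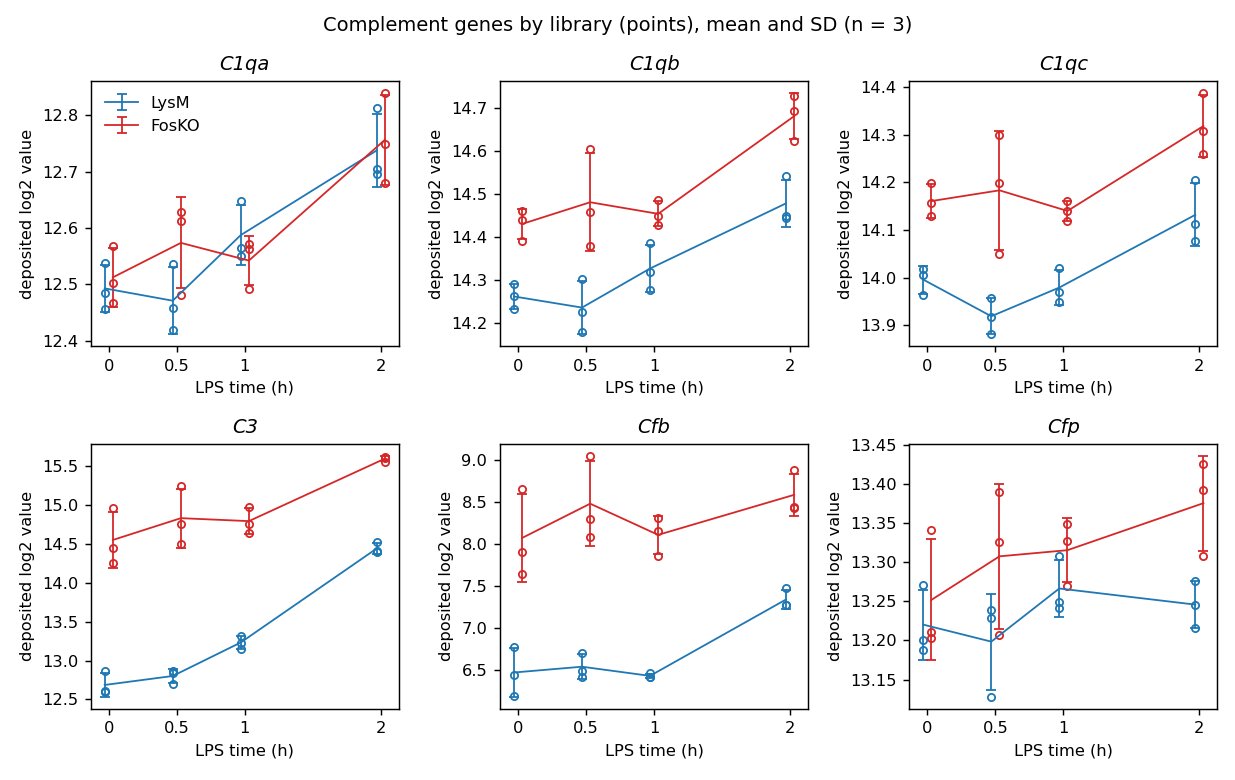
Deposited log2 value (vertical axis, a separate scale in each panel) against time in LPS (h) for the 6 complement genes. Open points are libraries, lines join group means and bars are the SD (n = 3), with libraries labelled LysM in blue and FosKO in red. The C3 and Cfb panels span about 3 log2 units with the labels apart at every time, whereas the C1qa, C1qb, C1qc and Cfp panels each span under 1 unit.

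The promoters show what lies upstream of genes that moved much and genes that moved little. Sequences were taken from RefSeq for GRCm38.p6, which held entries for 4 of the 6 genes (C1qb, C1qc, C3 and Cfp). The 250 bases before the start site are printed for C3, which moved most, and for C1qb and Cfp, which moved little. They run 5′ to 3′ along the minus strand at chr17:57228137-57228386 (C3), chr4:136886201-136886450 (C1qb) and chrX:20931556-20931805 (Cfp), with motif matches in capitals.
C3: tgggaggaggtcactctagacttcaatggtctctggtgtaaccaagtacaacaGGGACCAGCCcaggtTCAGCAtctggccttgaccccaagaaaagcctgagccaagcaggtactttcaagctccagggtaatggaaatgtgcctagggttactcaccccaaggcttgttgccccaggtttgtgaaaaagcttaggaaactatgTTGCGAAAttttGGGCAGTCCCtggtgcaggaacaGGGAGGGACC
C1qb: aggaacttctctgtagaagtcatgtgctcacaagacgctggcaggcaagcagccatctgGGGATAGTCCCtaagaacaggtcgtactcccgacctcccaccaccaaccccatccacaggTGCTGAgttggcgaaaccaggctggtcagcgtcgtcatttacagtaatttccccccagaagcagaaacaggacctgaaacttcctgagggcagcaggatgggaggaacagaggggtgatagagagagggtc
Cfp: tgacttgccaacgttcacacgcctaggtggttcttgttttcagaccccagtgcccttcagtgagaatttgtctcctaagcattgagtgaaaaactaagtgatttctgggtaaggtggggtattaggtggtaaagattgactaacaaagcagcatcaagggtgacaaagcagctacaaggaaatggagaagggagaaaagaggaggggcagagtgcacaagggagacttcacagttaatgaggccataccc
In all, 6 motifs were searched on both strands, and each share is of the 32851 promoter windows of 300 bases that hold it. They were AP-1 (TGANTCA, in 7.81%), NF-kB (GGGA and CC with any 4 bases between, 20.7%), an interferon response element (GAAA and GAAA with any 2 bases between, 3.44%), C/EBP (TTGCNNAA, 10.8%), the core of a Maf element (TGCTGA, 19.5%) and PU.1 (GAGGAAGT, 3.20%). C3 held the NF-kB letters starting at -197 and -10 from the start site and, on the opposite strand, at -33. It also held the C/EBP letters from -45 to -38 and the Maf letters on the opposite strand at -182. C1qb held the NF-kB letters on both strands in 1 overlapping stretch from -191 to -181 and the Maf letters at -131. C1qc held the NF-kB letters at -40 and the PU.1 letters at -195, both on the opposite strand. Cfp held none of the 6, and the AP-1 and interferon letters were in none of the 4 windows. A match of letters is a description of the sequence and not a binding site.

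The first question was how the macrophages labelled FosKO differed from those labelled LysM at each time. Of the 6 genes, 4 were called higher in FosKO before LPS (C1qb, C1qc, C3 and Cfb), where 19.5% of all tested genes were called higher. The same 4 were called at 0.5 h (background 21.2%) and at 1 h (background 18%), and Cfp joined them at 2 h to make 5 (background 24.4%). None was called lower at any time by limma, and the genes that missed the threshold had no unadjusted p under 0.05 in that direction. After quantile normalisation 2 were called at 0 h and 2 at 1 h (C3 and Cfb), and the same 4 at 0.5 h. At 2 h 3 were then called, with C3 and Cfb higher and C1qa lower. The backgrounds above belong to the deposited values, and none is given here for the quantile-normalised ones. The median difference of the 6 was 0.17, 0.25, 0.14 and 0.19 log2 units at 0, 0.5, 1 and 2 h, against 0.00 over all tested genes at each time. The calls hide 2 very different sizes, which are given gene by gene.

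C3, the component on which all complement pathways meet, was far higher in the FosKO-labelled libraries. Its log2 values at 0 h were 12.86, 12.59 and 12.61 in LysM and 14.25, 14.45 and 14.96 in FosKO. At 0.5 h they were 12.87, 12.70 and 12.84 in LysM and 14.75, 14.50 and 15.24 in FosKO. The lowest FosKO library was above the highest LysM library by more than a log2 unit at both times, and FosKO replicate 3 was the highest of its group. At 1 h the values were 13.23, 13.15 and 13.32 against 14.64, 14.76 and 14.98. At 2 h they were 14.40, 14.39 and 14.53 against 15.56, 15.63 and 15.61. The labels did not overlap at either time, and the gap between the means was smaller than at 0 h. By the limma test of that change it was not called at 1 h (-0.30, adjusted p = 0.870). At 2 h it was called, but near the threshold (-0.71, adjusted p = 0.0336). The fitted difference was 1.86 log2 units at 0 h (SE 0.16, 95% interval 1.54 to 2.19, 3.64-fold, limma adjusted p = 1.54e-08) and 2.03 at 0.5 h (4.08-fold, adjusted p = 3.09e-09). It was 1.56 at 1 h (2.95-fold, adjusted p = 1.51e-07) and 1.16 at 2 h (95% interval 0.83 to 1.48, 2.23-fold, adjusted p = 3.99e-06). Among all 13901 genes this difference ranked 14 from the highest at 0 h and 141 from the highest at 2 h. Within libraries of high Rn18s-rs5 the C3 difference was 2.09 at 0.5 h (2 against 2) and 1.64 at 1 h (2 FosKO against 1 LysM), and within those of low Rn18s-rs5 it was 1.92 (1 against 1) and 1.41 (1 against 2).

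Cfb, the protease subunit of the alternative pathway convertase, showed a difference of like size at a much lower level. At 0 h its log2 values were 6.77, 6.44 and 6.19 in LysM and 7.65, 7.91 and 8.66 in FosKO. At 0.5 h they were 6.70, 6.49 and 6.41 against 8.30, 8.09 and 9.06. The labels did not overlap, and FosKO replicate 3 was again the highest library and lay apart from the other two. At 1 h the values were 6.41, 6.46 and 6.41 against 7.86, 8.16 and 8.31, and at 2 h they were 7.27, 7.27 and 7.47 against 8.45, 8.44 and 8.88. No FosKO library fell within the LysM range at these times either. The difference was 1.61 log2 units at 0 h (SE 0.23, 95% interval 1.13 to 2.09, 3.05-fold, limma adjusted p = 1.49e-05), 1.95 at 0.5 h (3.86-fold, adjusted p = 9.58e-07), 1.69 at 1 h (3.22-fold, adjusted p = 8.20e-06) and 1.25 at 2 h (2.38-fold, adjusted p = 0.000155). Within high Rn18s-rs5 libraries it was 1.98 at 0.5 h and 1.82 at 1 h, and within low ones 1.89 and 1.43. Without FosKO replicate 3 at 0 h the differences at 0 h were 1.66 for C3 and 1.31 for Cfb, and both stayed called.

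C1qb and C1qc, the B and C chains of C1q, were slightly higher in the libraries labelled FosKO on the deposited scale. C1qb stood at 14.29, 14.26 and 14.23 in LysM and 14.44, 14.39 and 14.46 in FosKO at 0 h. C1qc stood at 14.02, 14.01 and 13.96 in LysM and 14.16, 14.13 and 14.20 in FosKO. The labels did not overlap for either gene at any of the 4 times, but the gaps were far smaller than those of C3. C1qb differed by 0.17 log2 units at 0 h (1.12-fold, limma adjusted p = 0.00832), 0.24 at 0.5 h (adjusted p = 0.000286), 0.13 at 1 h (adjusted p = 0.0438) and 0.20 at 2 h (adjusted p = 0.00147), but after quantile normalisation it differed by 0.00, 0.15, -0.06 and 0.02 and was called only at 0.5 h. C1qc differed by 0.16 at 0 h (1.12-fold, adjusted p = 0.0101), 0.26 at 0.5 h (adjusted p = 0.000137), 0.16 at 1 h (adjusted p = 0.0122) and 0.19 at 2 h (adjusted p = 0.0031), but by -0.01, 0.12, -0.02 and -0.08 after quantile normalisation, again called only at 0.5 h. Within high Rn18s-rs5 libraries the C1qb difference was 0.29 at 0.5 h and 0.16 at 1 h, and that of C1qc was 0.27 and 0.18. Within low ones the differences were 0.16 and 0.24 at 0.5 h, and 0.13 and 0.17 at 1 h. With high Rn18s-rs5 libraries alone neither gene was called at 1 h (adjusted p = 0.126 and 0.117), and C1qb at 1 h also lost its call without 1 of 5 libraries in turn (LysM replicate 1 or 2, or FosKO replicate 1, 2 or 3), where its adjusted p ran from 0.0561 to 0.16, and without a filter (0.0682) or a variance trend (0.0567).

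C1qa, the A chain, did not follow its partners. Its log2 values ran from 12.42 to 12.81 in the 12 LysM libraries and from 12.47 to 12.84 in the 12 FosKO libraries, and the labels overlapped at all 4 times. The differences of C1qa were 0.02 (95% interval -0.08 to 0.12), 0.10 (0.00 to 0.20), -0.05 (-0.14 to 0.05) and 0.02 (-0.08 to 0.12) at 0, 0.5, 1 and 2 h, with limma adjusted p of 0.796, 0.0904, 0.504 and 0.787. For C1qa the difference within high Rn18s-rs5 libraries was 0.12 (0.5 h) and -0.02 (1 h), and within low ones it was 0.08 and -0.03. At 0.5 h C1qa was called when LysM replicate 3 (adjusted p = 0.0473) or FosKO replicate 2 (adjusted p = 0.0201) was left out, and after quantile normalisation it was called lower in FosKO at 2 h (-0.13, adjusted p = 0.0405). Subtracting C1qa from C1qb within a library leaves out any scaling shared by the whole library. C1qb exceeded C1qa by 1.77 ± 0.03 log2 units in LysM and 1.92 ± 0.04 in FosKO at 0 h (SD, n = 3), with 1.74 ± 0.01 and 1.92 ± 0.08 at 2 h. C1qc exceeded C1qa by 1.50 ± 0.04 and 1.65 ± 0.06 at 0 h, with 1.39 ± 0.01 and 1.56 ± 0.06 at 2 h. In each of these pairs of groups every FosKO library was above every LysM library.

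Cfp, which encodes the stabiliser properdin, was nearly level. Its log2 values ran from 13.13 to 13.31 in LysM and from 13.20 to 13.43 in FosKO, with overlap between the labels at 0, 0.5 and 1 h. Cfp differed by 0.03 (95% interval -0.06 to 0.13, limma adjusted p = 0.648) at 0 h, 0.11 (adjusted p = 0.0646) at 0.5 h and 0.05 (adjusted p = 0.452) at 1 h. At 2 h the values were 13.28, 13.22 and 13.25 in LysM and 13.43, 13.31 and 13.39 in FosKO, a difference of 0.13 (1.09-fold, adjusted p = 0.0265) that was 0.01 after quantile normalisation. This call of Cfp was lost without LysM replicate 2 (adjusted p = 0.0918) or 3 (0.057) or FosKO replicate 1 (0.115) or 3 (0.0729) at 2 h. The Cfp difference within high and within low Rn18s-rs5 libraries was 0.08 and 0.16 at 0.5 h, then 0.06 and 0.07 at 1 h. At 0.5 h it was called without FosKO replicate 2 (adjusted p = 0.00963) and with the Rn18s-rs5 set as a term (adjusted p = 0.0443).

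**Figure D2:**
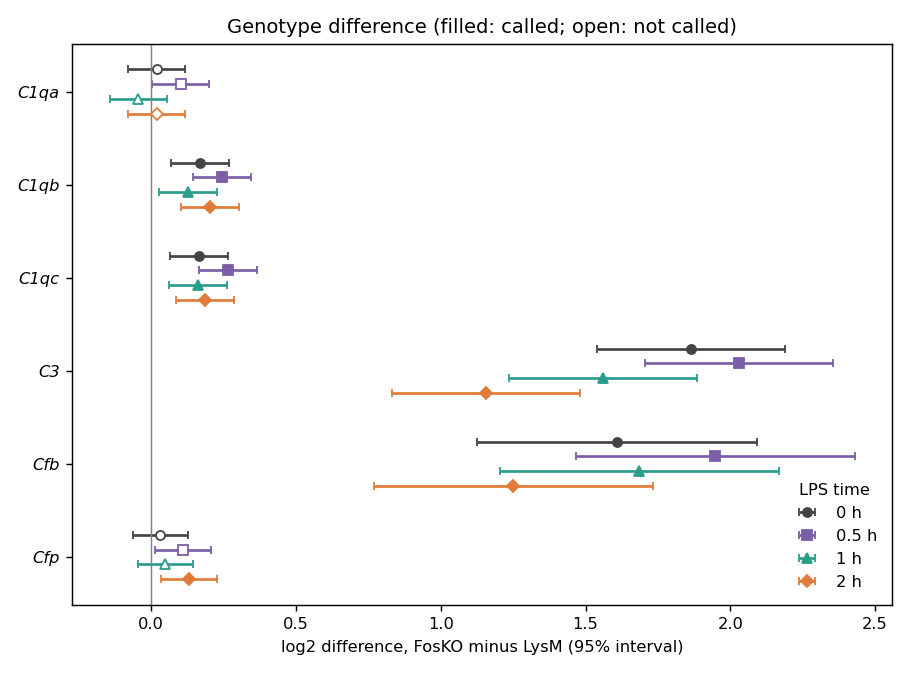
Log2 difference between libraries labelled FosKO and LysM (horizontal axis) for the 6 genes (rows) at 0, 0.5, 1 and 2 h of LPS (marker shape and colour), with 95% intervals from the limma fit. Filled markers are called at an adjusted p under 0.05. C3 and Cfb lie between 1.16 and 2.03, and the other 4 genes lie between -0.05 and 0.26.

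The second question was what LPS did within each genotype. In LysM at 0.5 h limma called 0 of the 6 genes (background 7.24% in either direction), and none had an unadjusted p under 0.05. At 1 h only C3 was called, higher (background 19.2%), and at 2 h 5 were called higher, all but Cfp (background 30.6%). In the libraries labelled FosKO 0 were called at 0.5 h (background 5.92%) and 0 at 1 h (background 32.6% in either direction), with none at an unadjusted p under 0.05 at either time. At 2 h 5 were called higher, all but Cfb (background 32.6%). These counts changed after quantile normalisation, for which no background is given here. In LysM 2 were then called at 0.5 h (C1qb and C1qc) and 3 at 1 h (with Cfp), all lower, and in FosKO 4 were called lower at 1 h (the C1q chains and Cfp). At 2 h C3 and Cfb were called higher and C1qb, C1qc and Cfp lower in both genotypes. The median change of the 6 at 2 h was 0.23 in LysM and 0.25 in FosKO, against -0.02 and 0.00 over all tested genes.

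C3 rose most. In LysM it rose by 0.55 log2 units at 1 h (1.46-fold, limma adjusted p = 0.00891) and by 1.76 at 2 h (SE 0.16, 3.38-fold, adjusted p = 3.54e-09), and all 3 libraries at 2 h were above all 3 at 0 h. With high Rn18s-rs5 libraries alone, which left 1 LysM library at 1 h, the change at 1 h was 0.54 and was not called (adjusted p = 0.125), nor was it after quantile normalisation (0.30, adjusted p = 0.0846). In FosKO C3 changed by 0.28 at 0.5 h (adjusted p = 0.344) and 0.24 at 1 h (adjusted p = 0.26) and rose by 1.05 at 2 h (2.06-fold, adjusted p = 5.70e-06). Without FosKO replicate 3 at 0 h, the highest C3 library of its group, the changes were 0.48 at 0.5 h (adjusted p = 0.0483) and 0.45 at 1 h (adjusted p = 0.0222), and both were then called. After quantile normalisation the rise of C3 at 2 h in FosKO was 0.59 and stayed called.

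With LPS, Cfb was called only at 2 h in LysM. There it changed by 0.07 at 0.5 h and -0.04 at 1 h and rose by 0.87 at 2 h (SE 0.23, 1.83-fold, limma adjusted p = 0.00264). In the libraries labelled FosKO its change was 0.41 at 0.5 h (95% interval -0.07 to 0.89, adjusted p = 0.355) and 0.04 at 1 h (adjusted p = 0.931), neither called, and at 2 h it was 0.52 (95% interval 0.03 to 1.00, adjusted p = 0.0595) and was not called. Cfb at 2 h in FosKO was called without FosKO replicate 3 at 0 h (0.81, adjusted p = 0.00314) and after quantile normalisation (0.57, adjusted p = 0.039). It was also called with a replicate block. The same-numbered FosKO libraries at 0 and 2 h correlated at 0.02 to 0.09 in their deviations from group means. Yet 15 of 18 stimulated libraries of both labels correlated best with their own number at 0 h. FosKO replicate 3 was the highest Cfb library of its group at 0 h (8.66) and at 2 h (8.88). Whether the numbers pair these libraries is therefore not settled, and neither is this call of Cfb.

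The C1q chains rose by small, like amounts at 2 h on the deposited scale in both genotypes and fell or did not pass the test after quantile normalisation. C1qa rose by 0.24 in LysM (limma adjusted p = 0.000129) and 0.24 in FosKO (adjusted p = 0.00013). C1qb rose by 0.22 (adjusted p = 0.000484) and 0.25 (adjusted p = 0.000103), and C1qc rose by 0.14 (adjusted p = 0.0181) and 0.16 (adjusted p = 0.00699). After quantile normalisation the changes at 2 h in LysM and FosKO were -0.04 and -0.11 for C1qa, -0.27 and -0.25 for C1qb, and -0.30 and -0.37 for C1qc, of which those of C1qb and C1qc were called. The C1qc call in LysM was also lost without LysM replicate 3 at 0 h (adjusted p = 0.068) or at 2 h (adjusted p = 0.109). Cfp changed by 0.03 in LysM at 2 h (adjusted p = 0.657) and by 0.12 in FosKO (adjusted p = 0.0243), and by -0.32 and -0.27 after quantile normalisation. The Cfp call in FosKO was lost without FosKO replicate 2 (adjusted p = 0.104) or 3 (0.0902) at 0 h, or 1 (0.107) or 3 (0.0678) at 2 h, and with only the groups compared in the fit (0.0648).

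The third question was whether the change with LPS itself differed between the labels. None of the 6 genes was called at 0.5 h (background 0.115% in either direction) or 1 h (background 1.22%) by limma, and none had an unadjusted p under 0.05. At 2 h 1 was called, C3, whose rise was smaller in FosKO than in LysM by 0.71 log2 units (difference -0.71, SE 0.22, 95% interval -1.17 to -0.25, adjusted p = 0.0336). In that comparison 7.70% of all tested genes were called with a negative difference (FosKO minus LysM), genes that fell more in FosKO included. This call of C3 was near the threshold. It was lost without LysM replicate 2 or 3 at 0 h, FosKO replicate 3 at 0 h, or any 1 of the 6 libraries at 2 h, where the adjusted p ran from 0.0519 to 0.0873. It was also lost without a filter (adjusted p = 0.0556) and in a fit on high Rn18s-rs5 libraries alone (adjusted p = 0.0588), which dropped no library at 0 or 2 h and left the difference at -0.71. The value moved furthest, to -0.51, without FosKO replicate 3 at 0 h. For Cfb the difference was -0.36 (95% interval -1.04 to 0.33, adjusted p = 0.542). For C1qa, C1qb, C1qc and Cfp it was 0.00 (95% interval -0.14 to 0.14), 0.03 (-0.11 to 0.17), 0.02 (-0.12 to 0.16) and 0.10 (-0.04 to 0.23).

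Among the 6 genes, C1qb varied most closely with C1qc, and C3 with Cfb. Over the 24 libraries Pearson's r was 0.97 between C1qb and C1qc and 0.94 between C3 and Cfb, and the libraries share the group differences behind these values. After subtracting each group's mean, r was 0.94 for C1qb and C1qc and 0.91 for C3 and Cfb. By the same measure C1qa stood at 0.76 with C1qb, 0.78 with C1qc and 0.64 with Cfp. C3 stood at 0.58 with C1qb and 0.61 with C1qc, and at 0.25 with C1qa and 0.11 with Cfp. The FosKO library with the highest C3 at 0, 0.5 and 1 h, replicate 3, was also the highest for Cfb at each of those times. C3 exceeded Cfb by 6.22 ± 0.17 log2 units in LysM and 6.48 ± 0.16 in FosKO at 0 h (not corrected for length), and by 7.10 ± 0.04 and 7.01 ± 0.24 at 2 h, so the groups at 0 h and 2 h of either label did not overlap in this difference.

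**Figure D3:**
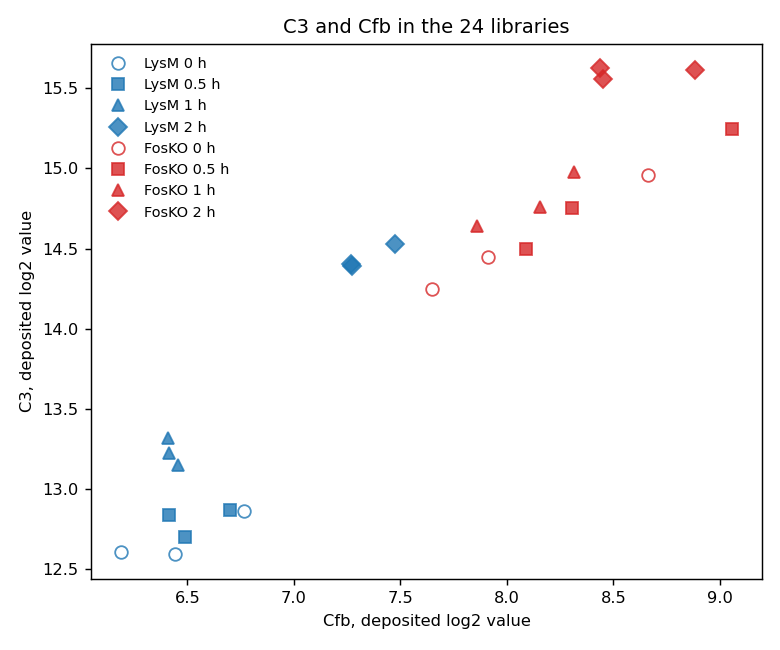
C3 (vertical axis) against Cfb (horizontal axis), both as deposited log2 values, with 1 point for each of the 24 libraries. Colour gives the label (blue LysM, red FosKO) and shape the time in LPS. Every FosKO library lies to the right of every LysM library, and the LysM libraries at 2 h lie nearest to the FosKO libraries at 0 h.

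Among all other genes, set members included, the 3 whose pattern over the 24 libraries was most like each member were taken from 10568 genes with a symbol and a mean linear value of at least 50. For C3 they were Saa3 (r = 0.99), which encodes an acute-phase protein made by macrophages, and the transporter genes Slc15a3 (0.99) and Slc7a8 (0.99). For Cfb they were Phf11d (0.99), Zbp1 (0.99), a sensor of nucleic acids, and Irf7 (0.98), a transcription factor of the interferon response. For C1qb they were the Src-family kinase gene Lyn (0.97), C1qc (0.97) and Pttg1 (0.96), and for C1qc they were C1qb (0.97), Oas1g (0.96) and Cp (0.95), the gene of ceruloplasmin. C1qa was most like Csnk2b, Gm10053 and Psmd7 (r = 0.90 to 0.91), and Cfp was most like Wbp11, Mmp9 and Pilrb1 at no more than 0.80. These values are a description and share the same libraries and group differences.

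The rest of the complement system was read from a list of 47 genes, of which 36 were in the table and 20 passed the filter. Between the labels, FosKO had 2 called above LysM and 7 called below it at 0 h, where 19.5% of all tested genes were called higher and 15.9% lower, and 4 above and 4 below at 2 h (backgrounds 24.4% and 20.3%). Their median difference was -0.03 at 0 h and -0.06 at 2 h. After 2 h of LPS 5 were called higher and 3 lower in LysM, where 30.6% of all tested genes were called higher and 4200 of 13901 lower. In FosKO 7 were called higher and 4 lower (backgrounds 32.6% and 29.5%). Among 14 genes that start the classical and lectin pathways, 5 were tested, and at each time 1 was called higher (C1ra) and 1 lower (Fcna) in FosKO. C1ra, the gene of the C1r protease that C1q carries, was higher in FosKO by 1.03 (SE 0.13, 2.05-fold, limma adjusted p = 2.82e-06), 1.10, 0.79 and 0.77 at 0, 0.5, 1 and 2 h, and rose with LPS at 2 h by 0.67 in LysM and 0.41 in FosKO (adjusted p = 0.00965). The FosKO rise of C1ra lost its call without FosKO replicate 1 at 0 h (adjusted p = 0.0644) or replicate 3 at 2 h (adjusted p = 0.0526). Fcna, the gene of ficolin A, a recognition molecule of the lectin pathway, differed by -0.47, -0.46, -0.49 and -0.33 (adjusted p = 0.000556, 0.000614, 0.000404 and 0.00839), but was not called at 2 h when LysM replicate 1 was left out (adjusted p = 0.0565). C2 and C4b, whose products form the classical convertase, were low, at no more than 3.60 in any library, and were not called in any of the 13 comparisons. Of 7 genes of the terminal pathway only C8g was tested, and it was not called.

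Receptors made up 11 of the 20 tested genes, and at 0 h 1 of them was called higher and 5 lower in FosKO (backgrounds 19.5% and 15.9%). At 2 h 3 were called higher and 2 lower (backgrounds 24.4% and 20.3%). At 0 h the means of the tested receptors lay furthest apart for C5ar2 (8.08 in LysM and 7.40 in FosKO) and Lrp1 (15.31 and 14.87). At 2 h C5ar2 stood at 7.81 in LysM and 7.55 in FosKO, and Lrp1 at 14.86 and 14.96. C5ar1, the receptor of the anaphylatoxin C5a, differed by -0.32 at 0 h (SE 0.04, limma adjusted p = 2.87e-06), -0.30 at 0.5 h (adjusted p = 4.82e-06), 0.00 at 1 h and 0.21 at 2 h (adjusted p = 0.000295, but 0.05 and not called after quantile normalisation). It rose with LPS at 2 h by 0.68 in LysM and 1.21 in FosKO, and the rise was larger in FosKO by 0.53 (SE 0.06, adjusted p = 2.05e-06). C3ar1, the receptor of C3a, stood at 15.10 to 15.36 in all libraries and was not called between the labels at any time, with differences of -0.01 to -0.07. Itgam, a chain of the receptor for cleaved C3 (CR3), differed by -0.19 at 0 h (adjusted p = 0.000168), -0.25 at 0.5 h and -0.18 at 1 h, whereas at 2 h it was -0.04 (adjusted p = 0.353). Cd93, once described as a C1q receptor, was called between the labels only at 1 h (-0.14, adjusted p = 0.0197), and not with high Rn18s-rs5 libraries alone (adjusted p = 0.137). That Cd93 call was also lost without LysM replicate 1 (adjusted p = 0.0556) or 3 (0.0786) or FosKO replicate 3 (0.102) at 1 h.

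Of 12 genes listed as regulators 3 were tested. Cd59a, which encodes an inhibitor of the membrane attack complex, was lower in FosKO by limma at all 4 times (-0.54, -0.70, -0.73 and -0.71, adjusted p = 0.00301, 0.00022, 0.000179 and 0.000157). Cd46 was called lower only at 1 h (-0.34, adjusted p = 0.012), a call lost with only the groups compared (0.0565) and without LysM replicate 1 at 1 h (0.0675). Cd55, the membrane regulator that speeds convertase decay, rose with LPS at 2 h by 1.53 log2 units in LysM (2.89-fold, adjusted p = 1.21e-07) and 0.96 in FosKO (adjusted p = 5.35e-05). It was not called between the labels at any time, with -0.41 (adjusted p = 0.0557) at 2 h. Its rise of 0.51 at 1 h in LysM (adjusted p = 0.0261) lost its call with high Rn18s-rs5 libraries alone, which left 1 LysM library at 1 h (0.54, adjusted p = 0.172), and without LysM replicate 3 at 0 h (0.104) or LysM replicate 1 (0.0654) or 3 (0.0893) at 1 h.

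**Figure D4:**
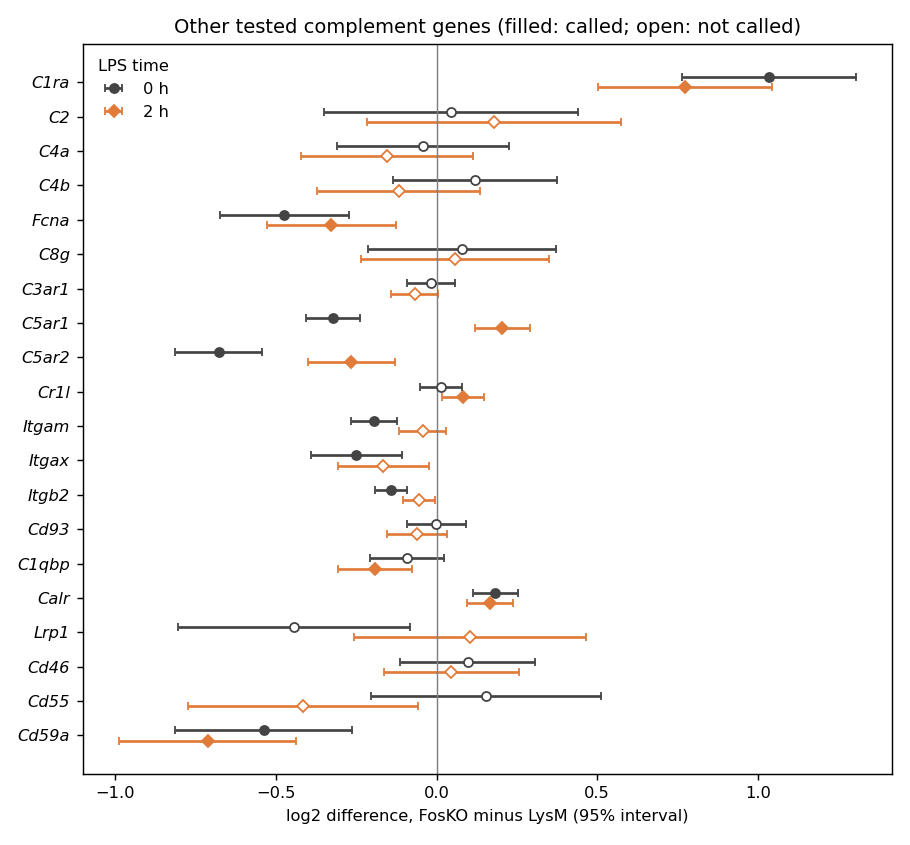
Log2 difference between libraries labelled FosKO and LysM (horizontal axis, 95% intervals from limma) for the 20 tested complement genes outside the set (rows), before LPS (grey circles) and after 2 h (orange diamonds). Filled markers are called. C1ra lies furthest to the right at both times, and C5ar1 lies left of zero at 0 h and right of it at 2 h.

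Genes of the surrounding programmes are given beside C3 and Cfb. Saa3 and Irf7 were also among the genes most like C3 and Cfb over these same libraries, so their differences are not separate from that likeness. At 0 h, in libraries labelled FosKO, the interferon-stimulated genes Ifit1 and Irf7 were 2.28- and 2.30-fold higher, and on the log2 scale Saa3 was higher by 2.06 and the scavenger receptor gene Marco by 2.76, whereas Il1b differed by 0.20 (limma adjusted p = 0.0539). Ifnb1, the gene of interferon beta, differed by 0.10 at 0 h (adjusted p = 0.609) and was higher in FosKO by 1.69 at 0.5 h (adjusted p = 1.99e-09), 3.18 at 1 h (adjusted p = 1.45e-13) and 3.00 at 2 h (adjusted p = 3.01e-13). Nfkbia, an early NF-kB target, was higher by 0.28 at 0 h and differed by 0.04 at 2 h (adjusted p = 0.402).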

How the data were processed

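RNA from 24 BMDM libraries was sequenced by the authors from a single end, strand-specifically, on a HiSeq 2500. Per the labels and the study's methods, the authors mapped reads with STAR (2.5.2a), counted them with RSEM (1.2.31) and normalised with DESeq2 (1.16.1) on GRCm38. The authors' methods name another DESeq2 release and RefSeq genes, whereas the deposited table carries Ensembl identifiers. The authors deposited normalised log2 values, 1 per gene and library, from -2.22 to 19.39 with no zeros, which resemble a regularised log. If they are one, differences of genes with few reads are understated. All 24 columns of values were used, and the deposited files give no depth.

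Genes with 2 to the power of the value of at least 5 in at least 3 libraries entered limma (3.58.1, R 4.3.3) on the log2 values as deposited, with 8 group means, a variance trend and 16 residual degrees of freedom. In each of 13 comparisons Benjamini-Hochberg adjustment ran over the 13901 genes, and calls were made below an adjusted p of 0.05. The fit was tested on simulated data. Of the table's identifiers 99.6% were found in GENCODE M21 (GRCm38), which gave coordinates and exon lengths. Values per kilobase subtract the log2 of the exon length in kilobases.

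The members and the lists of other complement genes, markers and companion genes were chosen with earlier results of these data known. Named were all members, 6 other complement genes whatever their values (C2, C4b, C3ar1, C5ar1, Itgam and Cd93), any other listed gene called with a 2-fold change (C1ra and Cd55), the 3 genes most correlated with each member, and check and companion genes. C8g, Fcna, Cd46, Cd59a, C5ar2 and Lrp1 were named after their values were seen. C5ar2 and Lrp1 are not among the named genes followed through the alternatives. A few genes of these lists are not reported here and were left out of the list counts. Alternatives were no filter or one at 20, a pseudocount of 1, quantile normalisation, median centring, no variance trend, only the groups compared, replicate blocks, Rn18s-rs5 as a term or only libraries of high Rn18s-rs5, and each library left out.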

Additional observations from a re-analysis of the deposited data

Results flagged for a closer look

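Some LPS responses differed between the labels by a test of the difference itself (limma). At 2 h 3 of 20 tested complement genes outside the set were called with a positive difference and 0 with a negative one. The backgrounds were 7.27% and 7.70%, and C5ar1 and Itgam were among the 3. C3 rose less in the libraries labelled FosKO at 2 h, by 0.71 on the log2 scale (difference -0.71, adjusted p = 0.0336), a call that was lost without a filter (adjusted p = 0.0556), in a fit on high Rn18s-rs5 libraries alone (0.0588, with every library at 0 and 2 h kept and the difference still -0.71) and without LysM replicate 2 or 3 or FosKO replicate 3 at 0 h or any 1 of the 6 libraries at 2 h (0.0519 to 0.0873). C5ar1 rose more in FosKO, by 0.32 at 1 h (adjusted p = 0.00313) and 0.53 at 2 h (adjusted p = 2.05e-06). The change of Itgam at 2 h was higher in FosKO by 0.15 (adjusted p = 0.0423), a call that was lost without a filter (adjusted p = 0.0598), without the variance trend (0.0566), with only the groups compared (0.0564), after quantile normalisation (0.352) and without 1 of 7 libraries in turn (LysM replicate 1 or 2 at 0 h or 2 or 3 at 2 h, FosKO replicate 2 at 0 h or 1 or 2 at 2 h).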

How the results depend on the processing

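The calls of C3 and Cfb between the labels held at all 4 times under every alternative, with C3 from 1.02 to 2.20 log2 units and Cfb from 1.11 to 2.15. Depth is unknown, and the numbers below are limited by 3 libraries a group.

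Quantile normalisation changed most, and the counts of members called under it are given without the share of all tested genes called. The number of members called became 2 at 0 h, 2 at 1 h and 3 at 2 h between the labels, 2 at 0.5 h and 3 at 1 h of LPS in LysM, and 4 at 1 h of LPS in FosKO. A value is classed as reversed when its sign changed and either fit called it, also where the new value is near 0. Quantile normalisation reversed C1qc at 0 h (-0.011), C1qb (-0.056) and C1qc (-0.016) at 1 h, and C1qa (-0.13) and C1qc (-0.081) at 2 h between the labels. Of these only C1qa was called after it, and the others were lost calls. For LPS in LysM it reversed C1qb (-0.22) and Cfp (-0.19) at 1 h, and C1qa (-0.035), C1qb (-0.27), C1qc (-0.30) and Cfp (-0.32) at 2 h. For LPS in FosKO it reversed C1qa (-0.14), C1qb (-0.28) and Cfp (-0.14) at 1 h, and C1qa (-0.11), C1qb (-0.25), C1qc (-0.37), Cfp (-0.27) and Itgam (-0.39) at 2 h. Over all genes, with members called among them, the share of calls between the labels that were higher was 53.1% at 1 h and 54.6% at 2 h as deposited, and 42.8% and 43.0% after it. The cause was not tested. Counting members and named genes together, 1196 of 1250 values were classed as the same under these settings. Of the others, 26 lost a call, 9 gained one and 19 reversed. With 1 library left out 785 of 834 were classed as the same, 43 lost a call and 6 gained one. Values that changed sign while uncalled were not counted as reversed (14 under these settings, 37 with 1 library left out).

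Members called in the difference of response at 2 h fell to 0 without a filter and with high Rn18s-rs5 libraries alone, where those called at 1 h also became 2 between the labels and 0 for LPS in LysM. With 1 library left out, members called ranged from 0 to 1 for that difference, and from 0 to 1 for LPS at 0.5 and at 1 h in FosKO. For these fits and for the replicate blocks below, the share of all tested genes called is not given. A change in the count of members therefore cannot be told from a general change in the number of calls.

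Replicate numbers did not pair the libraries between genotypes, and within a genotype all 3 pairs were over 0.1 only for FosKO at 0.5 h against 0 h, where a replicate block changed no call of a member. Same-numbered libraries correlated in their deviations at -0.53 to 0.31 between genotypes (2 of 12 pairs over 0.1) and 0.01 to 0.27 within a genotype against 0 h (6 of 18 over 0.1), although 15 of 18 stimulated libraries correlated best with their own number at 0 h. With a replicate block members called went from 4 to 5 at 0.5 h between the labels (Cfp, adjusted p = 0.0069) and from 5 to 6 for LPS at 2 h in FosKO (Cfb, adjusted p = 0.0433, or 0.00393 with a block for each genotype and number).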
